A study of Mus musculus with 12 samples.

Results

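Microexons are coding exons so short that some encode only a pair of amino acids. In the gene models deposited with RNA-seq data of the mouse nucleus accumbens (NAc), the ventral striatal region that takes part in reward, they were taken as unique internal exons, neither first nor last, of 6 to 27 bp in transcripts that carry a protein identifier. By this rule 2126 of 176899 internal exons (1.20%) were microexons, and they lay in 1494 gene loci, 6.73% of the 22206 loci with a coding transcript.

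The study sequenced polyadenylated RNA from pooled NAc of C57BL/6 mice (C57BL/6 J in the study's methods), labelled as 8 to 10 weeks old, with 12 pools of 3 to 5 animals each, taken 24 h after the last intraperitoneal injection. In the repeated experiment, 3 pools came from mice given cocaine at 20 mg/kg daily for 7 days and 3 from mice given saline on the same schedule. In the acute experiment, 3 pools came from mice given saline for 6 days and then 1 day of cocaine at 20 mg/kg, and 3 from mice given saline alone. The file analysed here holds 1 set of gene models for all pools together, with no value for any pool. Everything below is therefore an account of transcript models on the mm9 (NCBIM37) genome. Neither inclusion of a microexon in the NAc nor an effect of cocaine, and no depth, could be read from the file.

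The splicing machinery recognizes most exons as a unit held between its splice sites, and very short exons leave little room for this, so they depend on strong intronic signals. In neurons, many microexons are included by SRRM4, a splicing factor that recognizes UGC close before the exon, and by RBFOX proteins (A2BP1 is RBFOX1), which recognize UGCAUG and favour inclusion when it lies in the downstream intron. Microexons whose length is a multiple of 3 add or remove whole codons and typically alter surface loops of synaptic, cytoskeletal and signalling proteins.

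The microexons below were chosen because they lie in well-studied neuronal genes, and each is skipped by other transcripts of its locus. The exon is in capitals and 40 bases of intron on each side are in lower case, read 5′ to 3′ on the transcribed strand. The coordinates are those of the exon.
Src, 18 bp, chr2:157284579-157284596, plus strand: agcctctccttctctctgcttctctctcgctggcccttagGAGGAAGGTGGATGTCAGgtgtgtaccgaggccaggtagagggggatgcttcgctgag
Kdm1a, 12 bp, chr4:136119353-136119364, minus strand: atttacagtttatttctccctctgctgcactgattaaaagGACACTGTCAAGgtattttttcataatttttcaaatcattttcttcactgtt
Itsn1, 15 bp, chr16:91842873-91842887, plus strand: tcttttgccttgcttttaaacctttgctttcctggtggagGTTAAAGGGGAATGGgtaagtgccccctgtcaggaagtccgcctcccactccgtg
Ptprd, 9 bp, chr4:75785198-75785206, minus strand: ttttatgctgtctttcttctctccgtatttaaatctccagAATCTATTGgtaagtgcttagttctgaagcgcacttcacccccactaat
Ptprs, 12 bp, chr17:56561256-56561267, minus strand: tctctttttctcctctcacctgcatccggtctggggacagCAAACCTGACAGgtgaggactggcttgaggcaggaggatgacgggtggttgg
Cacna1b, 6 bp, chr2:24498373-24498378, minus strand: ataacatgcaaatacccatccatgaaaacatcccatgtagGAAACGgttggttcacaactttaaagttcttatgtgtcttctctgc
Mef2c, 24 bp, chr13:83794203-83794226, plus strand: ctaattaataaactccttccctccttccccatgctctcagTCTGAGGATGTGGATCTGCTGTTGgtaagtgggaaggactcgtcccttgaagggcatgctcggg
Eif4g1, 21 bp, chr16:20674859-20674879, plus strand: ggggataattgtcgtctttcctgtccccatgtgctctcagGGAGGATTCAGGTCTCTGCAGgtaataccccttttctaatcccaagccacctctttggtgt
Eif4g3, 21 bp, chr4:137651824-137651844, plus strand: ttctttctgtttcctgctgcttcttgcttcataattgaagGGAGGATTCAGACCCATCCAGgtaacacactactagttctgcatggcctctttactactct

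Src is a tyrosine kinase, Kdm1a the histone demethylase LSD1, and Itsn1 an endocytic scaffold. Ptprd and Ptprs are presynaptic receptor phosphatases, and Cacna1b is the pore subunit of N-type calcium channels. Mef2c is a transcription factor, while Eif4g1 and Eif4g3 are translation initiation scaffolds. The 6 bp exon of Cacna1b, GAAACG, was held by 2 transcripts and skipped by 4. In the downstream intron of Eif4g3, TGCATG can be read in the printed bases, beginning at base 19 after the exon. The Src exon of 18 bp has its first TGCATG at base 57, just past the printed stretch. For contrast, 2 microexons that no transcript of their locus skips are those of the cardiac calcium release channel gene Ryr2 and the axon guidance receptor gene Robo1. The Ryr2 exon was in 2 transcripts and the Robo1 exon in 1, so the absence of skipping rests on few transcripts.
Ryr2, 15 bp, chr13:11983101-11983115, minus strand: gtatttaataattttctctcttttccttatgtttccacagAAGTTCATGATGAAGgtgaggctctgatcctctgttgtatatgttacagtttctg
Robo1, 27 bp, chr16:72993912-72993938, plus strand: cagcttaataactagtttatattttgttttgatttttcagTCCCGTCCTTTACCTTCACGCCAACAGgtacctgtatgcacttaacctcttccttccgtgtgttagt

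Acceptor strength separated the printed skipped exons from the printed never-skipped exons, but not all microexons of the genes chosen for sequences. The acceptors of the printed Ryr2 and Robo1 exons matched the average acceptor with 12.5 and 11.6 bits, and the 9 skipped exons printed scored between -1.37 bits (Ptprs) and 8.01 bits (Eif4g1). Other microexons of the genes chosen for sequences went the other way: a skipped 21 bp exon of Ryr2 scored 13.1 bits, the skipped exon of Mef2d 11.0 bits and a never-skipped 22 bp exon of Itsn1 4.58 bits. Bits here measure how closely the last 20 intron bases and first exon base follow the base frequencies at other internal exons.

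Lengths that keep the reading frame were more frequent among microexons than among longer exons. Of the 2126 microexons, 1278 (60.1%, 95% Wilson interval 58.0 to 62.2%) had a length divisible by 3, against 40.3% of all internal exons and 48.4% (47.4 to 49.3%) of the 9963 internal exons of 28 to 54 bp. Of the 22 lengths allowed, 8 (36.4%) are multiples of 3. The counts at these lengths were 95 exons of 6 bp, 94 of 9 bp, 117 of 12 bp, 108 of 15 bp, 141 of 18 bp, 190 of 21 bp, 197 of 24 bp and 336 of 27 bp. Each of the 8 exceeded the counts at both neighbouring lengths, and no other length between 6 and 27 bp did. At the edges of the rule there were 33 exons of 5 bp, 95 of 6 bp, 336 of 27 bp and 119 of 28 bp. Within the same host loci, 44.8% (44.2 to 45.4%) of the other internal exons were divisible by 3, so the difference was also present within the loci that hold microexons.

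**Figure D1:**
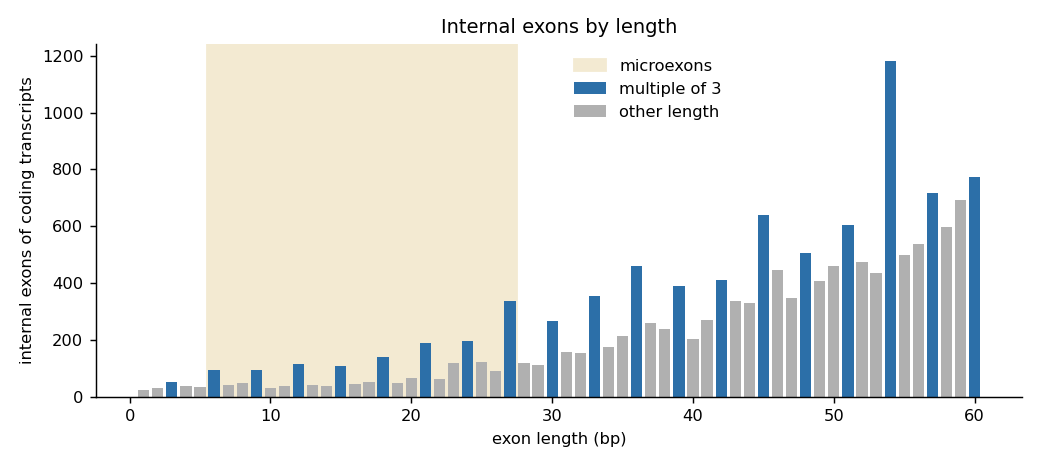
Number of unique internal exons of coding transcripts (y axis) at each length from 1 to 60 bp (x axis), with multiples of 3 in blue, other lengths in grey and the microexon range shaded. The blue bars stand above their grey neighbours at all 8 multiples of 3 in the range, from 95 exons at 6 bp to 336 at 27 bp.

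Microexons were missing from another transcript of the locus far more often than longer exons. A microexon counted as skipped when it lay wholly inside an intron of another transcript of its locus, and 1027 of 2126 did (48.3%, 46.2 to 50.4%), against 11.0% of all internal exons, 17.9% (17.1 to 18.6%) of those of 28 to 54 bp and 14.1% (13.7 to 14.5%) of the other exons of the same loci. Among 1278 microexons divisible by 3, 673 were skipped (52.7%, 49.9 to 55.4%), and among the other 848 there were 354 (41.7%, 38.5 to 45.1%), and these intervals did not overlap. Among the multiples of 3 the share skipped was highest at the shortest length, with 83 of 95 at 6 bp (87.4%), 79 of 108 at 15 bp (73.1%) and 109 of 336 at 27 bp (32.4%).

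A stricter definition asked for a single intron that joined the exact splice sites of both neighbouring exons, which is what simple inclusion or exclusion of 1 exon gives. This was met by 506 microexons (23.8%, 22 to 25.7%), against 5.43% of all internal exons. Here the reading frame separated the microexons further: 432 of 1278 divisible by 3 qualified (33.8%, 31.3 to 36.4%), but 74 of 848 others (8.73%, 7.01 to 10.8%). At 6 to 11 bp the shares were 41.3% (78 of 189) and 3.12% (5 of 160). Longer exons showed a split in the same direction, with 20.6% against 7.95% at 28 to 35 bp and 10.1% against 5.48% at 54 to 71 bp. Of the 354 skipped microexons not divisible by 3, 45.8% were bridged by introns sharing only 1 outer splice site and 33.3% by introns sharing neither, so that more than the microexon differed between the transcripts. The 1027 skipped microexons were held by a median of 33.3% of the transcripts that either held or skipped them, against 60.0% for the other skipped internal exons.

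**Figure D2:**
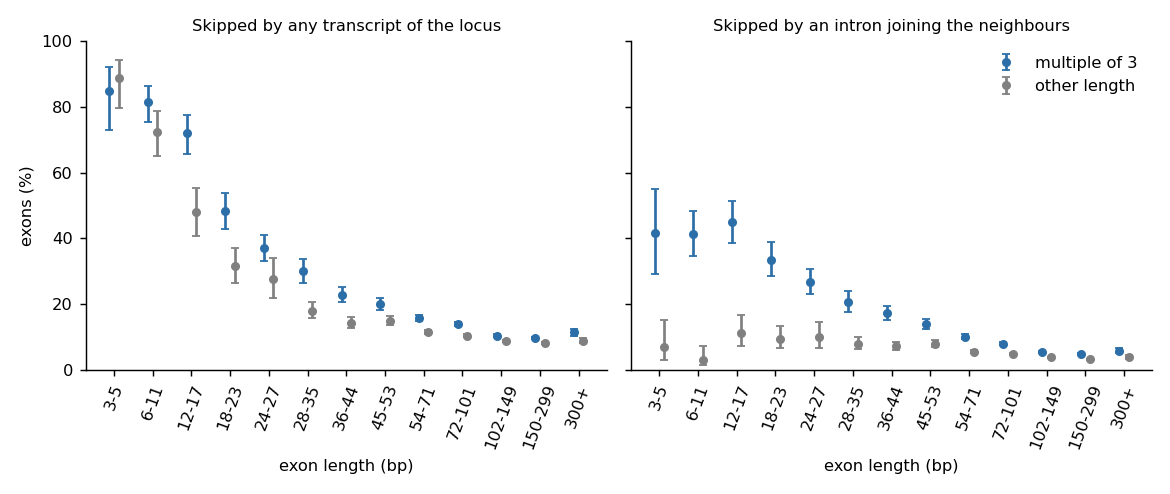
Share of internal exons (%) skipped by any transcript of the locus (left) and by an intron joining the exact neighbouring splice sites (right), by exon length in bp, for multiples of 3 (blue) and other lengths (grey); bars are 95% Wilson intervals. On the left the share for multiples of 3 goes from 81.5% at 6 to 11 bp to 37.0% at 24 to 27 bp, and on the right multiples of 3 reach 41.3% at 6 to 11 bp against 3.12% for other lengths.

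Loci with more transcripts in the models offer more chances to see an exon skipped. Microexons lay in loci with a median of 5 transcripts against 4 for other internal exons. In loci with 1 transcript no exon can be skipped (0 of 260 microexons), and the order held in the 3 classes with more. With 2 or 3 transcripts, 38.5% (34.6 to 42.5%) of microexons were skipped and 6.59% (6.37 to 6.82%) of other internal exons. With 4 to 7 transcripts the shares were 56.2% (52.3 to 59.9%) and 12.5% (12.2 to 12.8%), and with 8 or more 69.1% (65.4 to 72.6%) and 21.1% (20.7 to 21.5%). Exons of 1 locus share transcripts, so all these intervals, which cover counting error only and treat exons as independent, may be too narrow.

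Not every microexon in the models has the form of a spliced exon. In the genome, 1742 had AG before and GT or GC after them and at least 70 bp of intron on both sides in some transcript (81.9%, 80.2 to 83.5%), against 98.2% of other internal exons. The remaining 384 comprised 341 without those bases and 120 with a flanking intron under 70 bp, 77 of them with both. The shortest such intron was 5 bp. Of these 384, 93.0% were in a single transcript, 3.12% were in a manually annotated transcript and 39.8% were divisible by 3. Although 61.7% of them were skipped, only 5.99% were skipped by an exact intron. Among the 1742 with usual sites and flanks, 64.6% (62.3 to 66.8%) were divisible by 3, 45.4% (43.0 to 47.7%) were skipped and 27.7% (25.7 to 29.9%) were skipped by an exact intron. In all, 410 microexons, in 331 loci, had usual sites and flanks, a length divisible by 3 and an exact skipping intron.

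In GENCODE M1, an annotation of that build, 2010 microexons (94.5%) lay wholly inside a coding sequence, 56 in a 5′ UTR, 13 in a 3′ UTR and 29 across an end of the coding sequence. Of the microexons divisible by 3, 1220 of 1278 (95.5%) were wholly coding, as were 65066 of 70077 other internal exons divisible by 3. Transcripts marked for nonsense-mediated decay were the sole carriers of 12 microexons divisible by 3 (0.939%, 0.538 to 1.63%) and of 31 others (3.66%, 2.59 to 5.14%). The share among other internal exons is not given here. A microexon adjoined another microexon in 408 cases (19.2%). This was so for 27.1% (23.7 to 30.9%) of coding microexons divisible by 3 that were never skipped (25.3% without loci of 1 transcript) and for 6.33% (4.35 to 9.11%) of those skipped by an exact intron. Among other coding exons divisible by 3 and never skipped, 2.16% (2.03 to 2.29%) adjoined a microexon, without loci of 1 transcript.

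The RBFOX hexamer TGCATG was searched on the transcribed strand in the 200 bp after each exon whose downstream intron was at least as long. It was present after 211 of 1722 microexons (12.3%, 10.8 to 13.9%), against 8.35% of all internal exons. Coding microexons divisible by 3 differed by skipping: the hexamer followed 108 of 555 that were skipped (19.5%, 16.4 to 23.0%), 88 of 373 skipped by an exact intron (23.6%, 19.6 to 28.2%) and 38 of 448 never skipped (8.48%, 6.24 to 11.4%). The never-skipped class includes exons of loci with 1 transcript, which had no chance to be skipped, and without those loci the share was 30 of 344 (8.72%, 6.18 to 12.2%). Among longer or shorter coding exons divisible by 3 and skipped by an exact intron, 11.5% (10.5 to 12.6%) had it. At 30 to 54 bp, the nearest longer class, 17.0% (14.1 to 20.4%) of such exons had it, and this interval overlaps that of the microexons. The highest shares were in the windows nearest the exon on its downstream side. In the first 50 bases downstream, 7.64% (5.49 to 10.5%) of skipped microexons held it, and 7.18% (5.10 to 10.0%) in the next 50, compared with 3.01% (1.77 to 5.08%) in the 50 bases upstream. Named skipped microexons with the hexamer included those of Src, Eif4g1, Eif4g3, Mef2d, Dnm3, Rims2, the 9 bp exon of Ptprd and the 12 bp exon of Cacna1b. The other printed skipped exons, of Kdm1a, Itsn1, Ptprs, Mef2c and the 6 bp exon of Cacna1b, lacked it. Some named exons that no transcript skipped had it, such as the 27 bp exon of Srrm4 and the 15 bp exon of Ryr1. A match is a description of sequence and does not show that RBFOX proteins bind there.

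**Figure D3:**
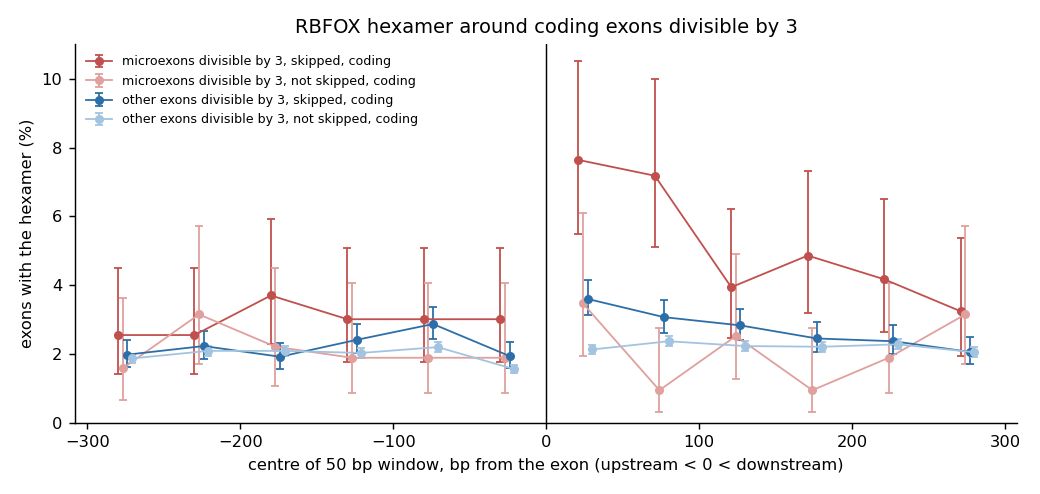
Share of coding exons divisible by 3 (%) with TGCATG in successive 50 bp windows up to 300 bp upstream and downstream of the exon, for microexons (red) and other internal exons (blue), skipped (dark) or not skipped (pale); bars are 95% Wilson intervals. The skipped microexons reach 7.64% in the first downstream window and 7.18% in the second, against 3.01% in the nearest upstream window.

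The trimer TGC, read by SRRM4, was searched on the transcribed strand 8 to 30 bases before the exon (TGC is also the start of TGCATG). Over all microexons it was as frequent as elsewhere, at 32.7% (30.7 to 34.7%) against 33.0% (32.8 to 33.2%) of other internal exons. Coding microexons divisible by 3 and skipped by an exact intron had it in 47.8% (43.0 to 52.6%), never-skipped ones in 29.9% (26.3 to 33.8%; 29.5% without loci of 1 transcript), and exact cassettes of other lengths in 35.2% (33.7 to 36.8%). Among the exact cassettes, the share was 56.7% (47.7 to 65.2%) at 6 to 12 bp, 52.0% (42.3 to 61.7%) at 15 to 18 bp, 39.0% (30.7 to 48.0%) at 21 to 24 bp and 41.9% (31.3 to 53.3%) at 27 bp. It was 34.3% (30.6 to 38.3%) at 30 to 54 bp. Never-skipped microexons of 6 to 12 bp had it in 46.2% (34.6 to 58.1%), or 39.5% (26.4 to 54.4%) without loci of 1 transcript, and both intervals overlap that of the skipped ones. Of the printed exons, those of Src, Kdm1a, Itsn1, Ptprs and Eif4g3 had TGC in this window.

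**Figure D4:**
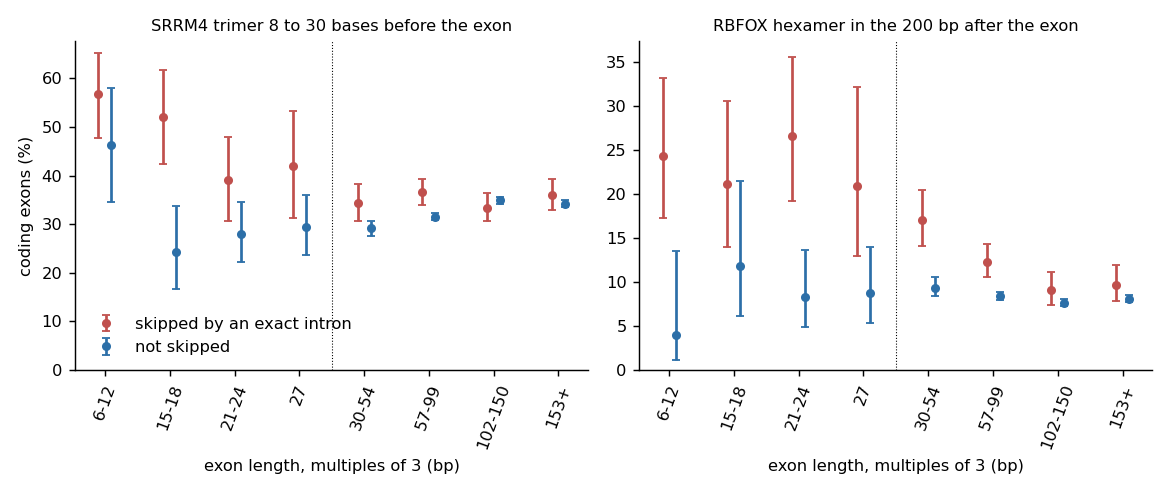
Share of coding exons divisible by 3 (%) with the trimer TGC 8 to 30 bases upstream (left) and the hexamer TGCATG within 200 bp downstream (right), by exon length in bp, for exons skipped by an exact intron (red) and never skipped (blue); bars are 95% Wilson intervals and the dotted line marks the upper end of the microexon range. The trimer goes from 56.7% to 34.3% of skipped exons between 6 to 12 bp and 30 to 54 bp, and the hexamer from 24.3% to 17.0%, where the intervals overlap.

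Acceptors were weaker at exact cassettes than at never-skipped microexons. Exact-cassette coding microexons divisible by 3 had a median acceptor of 6.97 bits (quartiles 3.03 and 10.3), and those never skipped 11.1 bits (quartiles 8.35 and 13.3), or 11.2 bits without loci of 1 transcript. The corresponding medians for other coding exons divisible by 3 were 8.70 and 9.35 bits. Exact cassettes were also shorter, with a median length of 18 bp against 24 bp. Among the length classes of exact cassettes, those of 6 to 12 bp had the lowest median, 4.0 bits. The never-skipped exons of 6 to 12 bp likewise had the lowest median of their length classes, 8.12 bits. At 27 bp the medians were 9.11 bits for exact cassettes and 11.7 bits for never-skipped exons. Donor medians were 8.02 bits for exact-cassette and 9.02 bits for never-skipped microexons. The pyrimidine share 5 to 30 bases before the exon had the same median, 73.1%, in both sets of microexons, against 69.2% at other internal exons. Internal exons of 28 to 54 bp had the same median as the microexons, 73.1%.

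Named genes were grouped in lists by role. These lists were drawn up to include genes known to host microexons, so their counts are descriptions and not independent evidence. Among genes of adhesion and receptor phosphatases, 16 of 24 held 38 microexons, of which 32 (84.2%) were divisible by 3 and 32 (84.2%) were skipped, compared with 42.8% and 20.4% of the other internal exons of these genes. Of the 38, 18 (47.4%) had an exact skipping intron, against 5.83% of the other internal exons. Ptprd alone held 8: those of 9, 11, 12, 18 and 27 bp had usual sites and flanks, and others of 7, 12 and 19 bp lacked the usual sites. Its 9 bp exon was in 3 transcripts and skipped by 2, while its 27 bp exon was in 1 and skipped by 5. The 12 bp exons of L1cam and Nrcam, both neuronal adhesion molecules, were in 4 and 1 transcripts and skipped by 3 and 4.

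Of the genes of vesicle and membrane traffic, 20 of 26 held 38 microexons. Of these, 31 (81.6%) were divisible by 3, 28 (73.7%) were skipped and 23 (60.5%) had an exact skipping intron, against 39.7%, 13.9% and 5.16% of the genes' other internal exons. The dynamins, GTPases that cut vesicles from the membrane, had exons of 12 bp. Dnm1 had a pair, 1 in 10 transcripts and skipped by none and 1 in 6 and skipped by 2. The Dnm2 exon was in 5 transcripts and skipped by 1, and the Dnm3 exon was in 1 and skipped by 4. Itsn1 had its 15 bp exon in 4 transcripts, a version starting 7 bases later in 1 transcript, and 6 transcripts lacking both. The 6 bp exon of Unc13b, a vesicle priming factor, was in 1 transcript and skipped by 7.

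In the list of actin and small GTPase genes, 18 of the 25 with internal exons held 34 microexons, 27 (79.4%) divisible by 3 and 30 (88.2%) skipped, against 48.7% and 20.8% of the genes' other internal exons. Macf1, which links actin to microtubules, had 6, including 1 of 9 bp in 1 transcript and skipped by 9. Git2, a regulator of Arf GTPases, had a 6 bp exon in 2 transcripts and skipped by 5. Channel and receptor genes had 24 microexons in 13 of 21 genes. There 23 (95.8%) were divisible by 3 and 15 (62.5%) were skipped, against 38.3% and 7.23% of the other exons. Skipping was by an exact intron for 13 (54.2%), against 4.08%. Cacna1c and Cacna1d, L-type calcium channel genes, had exons of 27 bp that no transcript skipped. The ryanodine receptor genes each had an exon of 15 bp. That of Ryr3 was in 1 transcript and skipped by 2, and those of Ryr1 and Ryr2 were in 1 and 2 transcripts and skipped by none. Of the 15 bases, 3 were the same in Ryr1 and Ryr2, 5 in Ryr2 and Ryr3 and 8 in Ryr1 and Ryr3.

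Genes of transcription, chromatin and translation held 18 microexons in 16 of 24 genes, of which 13 (72.2%) were divisible by 3, 17 (94.4%) were skipped and 12 (66.7%) were skipped by an exact intron. Of the other internal exons of these genes, 48.6% were divisible by 3, 24.4% were skipped and 11.3% were skipped by an exact intron. The Kdm1a exon of 12 bp was in 1 transcript and skipped by 4. The Mef2a and Mef2c exons of 24 bp were in 2 transcripts each and skipped by 5 and 2, and the Mef2d exon of 21 bp was in 1 and skipped by 4. The Eif4g1 exon was in 6 transcripts and skipped by 13. Rbfox1 itself had an 11 bp exon, in 2 transcripts and skipped by 5, behind an intron of only 50 bp. Srrm4 had a 27 bp exon that no transcript skipped, but only 1 transcript held it. Kinases and adaptors held 17 microexons in 10 of 22 genes, 15 (88.2%) divisible by 3 and 15 (88.2%) skipped, against 40.5% and 13.8% of the other exons. Of the 17, 9 (52.9%) were skipped by an exact intron, against 9.09% of the other exons. Apbb2, an adaptor that binds the amyloid precursor protein, had a pair of 6 bp exons, in 1 and 3 transcripts and skipped by 9 and 7.

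**Figure D5:**
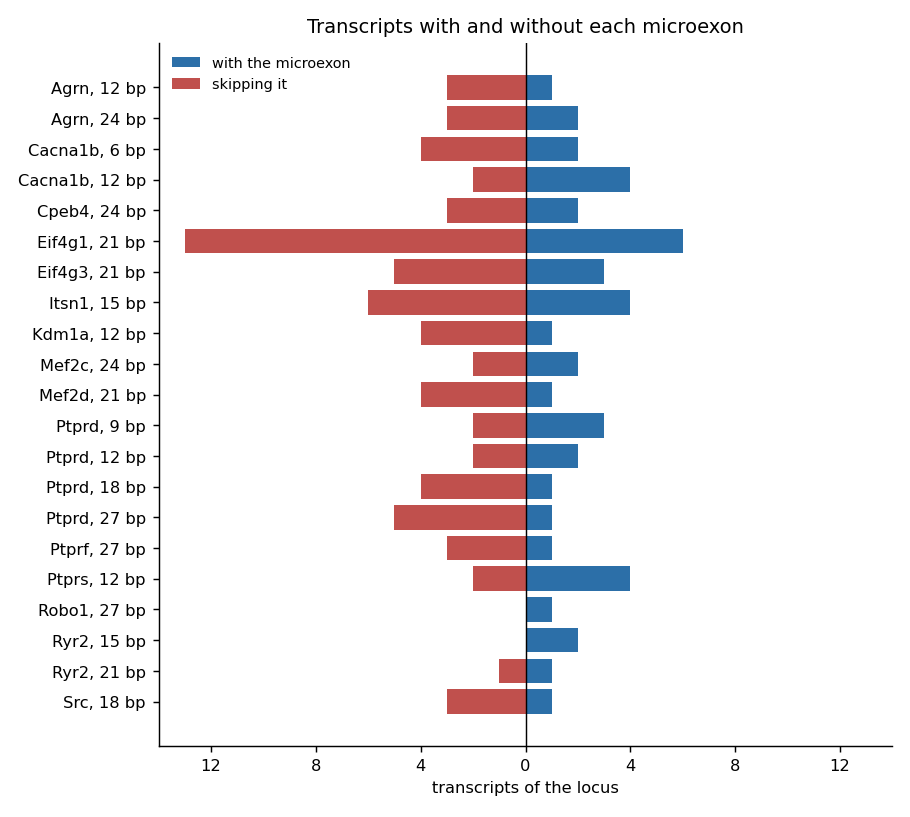
Number of transcripts of the locus that hold each microexon (blue, right) or skip it (red, left), for microexons divisible by 3 with usual sites and flanks in the genes chosen for sequences. Eif4g1 has the most of both, with 6 holding and 13 skipping, and the Robo1 27 bp and Ryr2 15 bp exons have no skipping transcript.

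Several sets of related genes held a microexon of the same length with a similar sequence. The pairs compared were chosen after their values were seen, and those below are shown with 10 intron bases on each side because they differ at few bases.
Cpeb2, 24 bp, chr5:43660108-43660131, plus strand: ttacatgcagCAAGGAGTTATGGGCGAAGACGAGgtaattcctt
Cpeb3, 24 bp, chr19:37180281-37180304, minus strand: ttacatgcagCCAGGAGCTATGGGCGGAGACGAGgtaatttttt
Cpeb4, 24 bp, chr11:31818801-31818824, plus strand: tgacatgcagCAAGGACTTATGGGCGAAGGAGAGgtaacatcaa
Rims1, 12 bp, chr1:22600932-22600943, minus strand: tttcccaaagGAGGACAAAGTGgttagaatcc
Rims2, 12 bp, chr15:39137638-39137649, plus strand: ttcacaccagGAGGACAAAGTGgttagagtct
Unc13a, 6 bp, chr8:74179402-74179407, minus strand: tggacctcagGCTATGgtgagtaacg
Unc13b, 6 bp, chr4:43246776-43246781, plus strand: ctctacacagGCTATGgtgagtgcat

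The 24 bp exons of Cpeb2, Cpeb3 and Cpeb4, which control polyadenylation and translation of mRNA, differed at 3 bases between Cpeb2 and either of the others and at 6 between Cpeb3 and Cpeb4. The 12 bp exons of Rims1 and Rims2, scaffolds of the presynaptic active zone, were identical, as were the 6 bp exons of Unc13a and Unc13b shown. Their use in the models was not: the Rims1 exon was in 6 transcripts and skipped by none, while the Rims2 exon was in 1 and skipped by 3. The Eif4g1 and Eif4g3 exons differed at 5 of 21 bases and those of Mef2a and Mef2c at 7 of 24. Bases were compared position by position, without gaps. Same length did not always mean alike: the Dnm2 exon of 12 bp differed at 4 bases from 1 of the 12 bp exons of Dnm1 and at 10 from the other.

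Collagen and muscle filament genes also held microexons. In 28 of 43 collagen genes there were 84, and 54 of them were 27 bp long, the length of 9 codons or 3 Gly-X-Y repeats of the collagen helix. Of the 84, 75 (89.3%) were divisible by 3, as were 84.9% of the other internal exons of these genes, and 16 (19.0%) were skipped, against 6.46%. Only 4 (4.76%) were skipped by an exact intron, against 1.82%. Muscle filament genes had 25 microexons in 10 of 20 genes, 15 (60.0%) divisible by 3 and 12 (48.0%) skipped. Of the other internal exons of these genes 73.0% were divisible by 3, a higher share than among their microexons, and 28.9% were skipped. An exact intron skipped 8 (32.0%) of the microexons and 5.75% of the other exons. A microexon of 24 bp counted here was also counted under vesicle and membrane traffic, since its gene is in both lists. Tnnt3, fast skeletal troponin T, had 7. Of these, 5 lay between exons of 14 and 19 bp, were divisible by 3 and were each skipped by 1 to 13 of its transcripts, while the 14 and 19 bp exons were not skipped.

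Most host loci, 1169 of 1494, held 1 microexon. The largest numbers were 20 in Csn1s1, an alpha casein of milk, 17 in BC051142, 14 in Col13a1, 13 in Ptprc, the leukocyte phosphatase CD45, 12 in Gm6792, 11 in Dmbt1, a secreted scavenger receptor protein, and 10 in Pcdh15, a cadherin of inner ear hair cells. Trdn, Col23a1, Ranbp3l and Col25a1 had 9 each. Skipping varied widely among these loci: 1 of 20 microexons was skipped in Csn1s1, none of 11 in Dmbt1 and none of 9 in Col23a1, but each of these loci had only 2 transcripts. In Ptprc, with 5 transcripts, 11 of 13 were skipped, and in Pcdh15, with 34, 10 of 10, although 5 of the 10 in Pcdh15 lacked usual sites and flanks. In Ranbp3l 3 of 9 had them.

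At 6 bp, the shortest length, 67 of 95 microexons had usual sites and flanks, and 35 of these were skipped by an exact intron. Of the first 20 by symbol among microexons of 6 bp, 14 had usual sites and flanks and 16 were skipped. Cdh23, another hair cell cadherin, had one in 2 transcripts, skipped by 6 and followed by TGCATG. The one in Ap2m1, a subunit of the clathrin adaptor AP2, was in 1 transcript and skipped by 2. Those of Akap2 and Anks1b lacked the usual splice site bases and had a flanking intron of 5 bp.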

How the data were processed

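The deposited file holds gene models written by the Cufflinks package: exon starts and ends on mm9, with locus, transcript and protein identifiers, from which lengths were computed. Per the labels the authors' tools were CASAVA, TopHat, Cufflinks and Cuffdiff, with versions not given in the sources used here; per the methods the models rest on Ensembl transcripts. The 624665 exons formed 87740 transcripts, 50689 with a protein identifier, in 35406 loci. Because the transcripts are reference annotation for all pools at once, the numbers measure annotation, not sequencing depth.

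Exons were read with Python 3.11.15. Flanking bases came from the NCBIM37 genome, on which no exon ran past the end of any of 21 chromosomes, and coding positions from GENCODE M1, where 48917 of 50689 coding transcripts had identical exons. Motif windows had to fit the shortest flanking intron. Donor scores used 3 exon and 6 intron bases, acceptor scores 20 intron bases and 1 exon base, both from other internal exons with AG and GT or GC sites. Shares carry 95% Wilson intervals, and no hypothesis test was made between treatments, which have no values. The steps were tested on 300 simulated exons and recovered all of them.

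The microexons and gene lists were chosen with earlier results of these data known. Named were every list gene with a microexon (examples in the text), the 10 loci with most microexons with ties, and microexons of 6 to 8 bp divisible by 3, at most 20 by symbol. Asap2, Map2 and Mef2b were not found under those symbols, and Apbb1 had no microexon. Some named genes that the rule takes in are not reported here.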

Additional observations from a re-analysis of the deposited data

How the results depend on the processing

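No paired analysis was possible because the gene models hold no values per pool, and for the same reason no pool could be left out. Of 42 alternatives over 5 results, 26 stayed within 1.5 times the count or within the 95% interval of the share. The number of microexons was 995 in manually annotated transcripts only, an alternative chosen, like the leaving out of collagens and skipping by the same gene name only, after seeing the data, as was the leaving out of loci with 1 transcript in the motif and acceptor shares. The share divisible by 3 was 64.1% with AG and GT or GC sites, 65.0% in manually annotated transcripts and 56.9% with 1 exon per locus, where other internal exons gave 37.4%. The share skipped was 54.5% at 6 to 24 bp, 43.7% at 6 to 30 bp, 50.5% at 3 to 27 bp, 45.8% with AG and GT or GC sites, 43.1% in manually annotated transcripts (12.7% for other exons) and 44.6% with 1 exon per locus (3.69% for other exons). It was 23.8% with an exact intron and 56.8% in loci with at least 2 coding transcripts (13.9% for other exons). The 1 exon kept per locus was the one in most transcripts, a choice that favours exons few transcripts skip. Most host loci held 1 microexon and left no choice, so the 44.6% and 3.69% were not chosen alike. TGCATG followed 6.78% of microexons within 100 bp and 16.1% within 300 bp, against 4.16% and 12.2% of other exons, and GCATG 24.2% against 20.3%. TGC within positions 1 to 50 preceded 58.7%, against 59.4%. The models limit all of these: transcripts are not weighted by abundance, and an exon in 1 transcript counts like any other.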

Other observations

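Exons shorter than the rule were rarer and mostly skipped: there were 182 of 1 to 5 bp, and at 3 bp, a single codon, 45 of 53 were skipped (84.9%, 72.9 to 92.1%), 22 of them by an exact intron. Whether these are spliced in cells was not tested.

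For 38 microexons (1.79%, 1.30 to 2.44%), a transcript that skipped the microexon ran its neighbouring exon on by exactly the same number of bases, against 25 of 174773 other internal exons (0.0143%, 0.00969 to 0.0211%). These shares are not like for like, since only a skipped exon can qualify. Skipped exons were 1027 of the microexons but only 18462 of the other internal exons. An exact match is also easier at short lengths, and length was not matched. The share of coding microexons divisible by 3 that began after the first base of a codon was 34.8% (31.2 to 38.6%) when skipped and 45.8% (41.8 to 49.8%) when never skipped, but 43.0% (38.4 to 47.6%) without loci of 1 transcript, where the intervals overlap. A stretch of TCTCTC lay in the 100 bp before 14.9% (13.4 to 16.5%) of microexons and 10.2% (10.0 to 10.3%) of other internal exons.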
